A study of Homo sapiens with 9 samples.

Results

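SR splicing factor genes whose messages are known for poison exons were followed in RNA bound by the nuclear and the cytoplasmic poly(A) binding proteins. The genes were SRSF1, SRSF2, SRSF3, SRSF4, SRSF5, SRSF6, SRSF7, SRSF11, TRA2A and TRA2B, taken by their symbols. All 10 were listed in both deposited tables and all 10 had a mean normalised read count (baseMean) above 50 in both, among 51105 genes listed in both tables and 14581 above that level in both. HEK293T cells, an established line of human embryonic kidney origin, were crosslinked with 0.1% formaldehyde for 10 min. The 3 groups compared held 3 libraries each: input RNA (Input), RNA precipitated with an antibody against PABPN (PABPN RIP) and RNA precipitated with an antibody against PABPC (PABPC RIP). The cells of all groups carried no stated genetic change or drug treatment, and each replicate lysate was divided between the antibodies, so both RIPs were compared with the same inputs.

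SR proteins carry an RNA recognition motif and a tail rich in arginine and serine, bind exonic enhancers and help the spliceosome to choose splice sites. Many of them limit their own amount: when the protein is abundant, a poison exon is included or an intron in the last part of the message is kept or spliced. A poison exon brings in a premature stop codon, and splicing behind the normal stop codon adds a splice junction there. Either can send the message to nonsense-mediated decay (NMD). PABPN coats poly(A) tails mainly in the nucleus, and PABPC takes its place on messages in the cytoplasm.

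The annotation of the members held the structures that give the family its name here. In GENCODE release 44, 7 of the 10 genes had a cassette exon, inside an intron of the canonical transcript, that carried the annotated stop codon of an NMD transcript. Of 12443 protein coding genes measured in both tables, 2628 (21.1%) had one. The members were taken as genes known for poison exons, so this share and those of NMD transcripts below are background and test nothing. The stretch from the start of such an exon to its stop codon is shown for these 7 genes, 5′ to 3′ on the strand of the gene in hg38, with the stop codon in capitals. Where a gene had several, the exon used for a stop by most NMD transcripts is shown, and the longer one in a tie.

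SRSF3, chr6:36599821-36599854, plus strand: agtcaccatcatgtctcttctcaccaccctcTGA
SRSF4, chr1:29166009-29166064, minus strand: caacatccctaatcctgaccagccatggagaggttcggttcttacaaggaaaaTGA
SRSF6, chr20:43459153-43459304, plus strand: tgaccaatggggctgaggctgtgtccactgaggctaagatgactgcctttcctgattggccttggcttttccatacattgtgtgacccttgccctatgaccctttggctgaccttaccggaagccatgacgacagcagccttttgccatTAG
SRSF7, chr2:38749319-38749346, minus strand: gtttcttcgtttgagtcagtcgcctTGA
SRSF11, chr1:70231859-70231908, plus strand: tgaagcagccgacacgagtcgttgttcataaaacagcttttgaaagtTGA
TRA2A, chr7:23522289-23522432, minus strand: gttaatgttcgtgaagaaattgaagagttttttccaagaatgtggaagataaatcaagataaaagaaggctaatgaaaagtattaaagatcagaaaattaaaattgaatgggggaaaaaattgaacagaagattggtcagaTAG
TRA2B, chr3:185931772-185931852, minus strand: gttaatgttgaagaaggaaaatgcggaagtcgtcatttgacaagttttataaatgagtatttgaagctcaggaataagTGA

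The whole exons were 456 bases in SRSF3, 175 in SRSF4, 268 in SRSF6, 449 in SRSF7, 117 in SRSF11, 301 in TRA2A and 276 in TRA2B. The exons of TRA2A and TRA2B both lay in intron 1 and began with the same 9 bases. The other 3 genes had no such exon. SRSF2 (chromosome 17, 76734115 to 76737333, minus strand) had a cassette exon of 104 bases behind its normal stop codon, where it adds a splice junction without adding a stop. SRSF1 (chromosome 17, 58000919 to 58007346, minus strand) and SRSF5 (chromosome 14, 69726900 to 69772005, plus strand) had NMD transcripts with no cassette exon. All 10 members had at least 1 NMD transcript, against 48.0% of coding genes, and 9 of 10 had at least 1 retained intron transcript, against 60.7%. SRSF6 was the member with none.

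**Figure D1:**
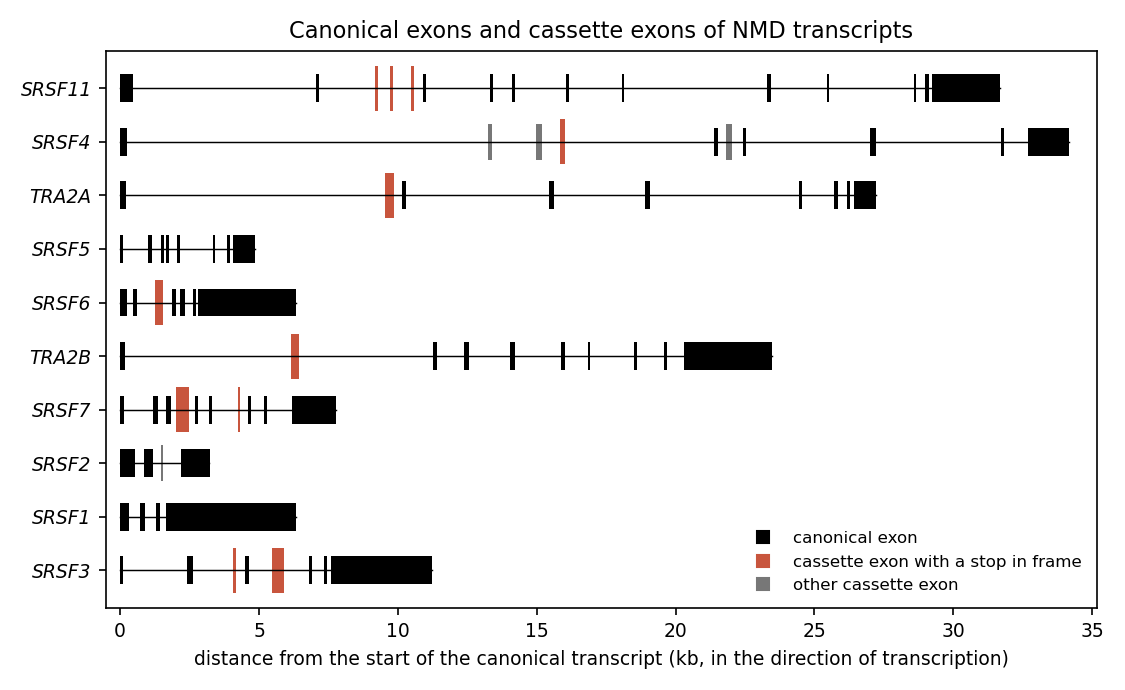
Canonical exons (black) of the 10 genes by distance from the start of the canonical transcript in kb, with cassette exons of NMD transcripts that carry a stop in frame (red) or not (grey); exons under 0.1 kb are drawn at that width and genes are ordered by the PABPN minus PABPC difference. Genes with a red exon range from SRSF6, with 1995 bases of intron in all, to SRSF4, with 31858.

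The counts pool intron and exon reads of a gene, so the values given here describe all RNA of a gene and not the inclusion of the exons shown. Values per library were not analysed here. The level of each group was obtained from the deposited baseMean and fold change as a mean of 3 libraries, and the error of each fold change is its standard error (SE). For the members, the spread between libraries implied by these errors was 0.13 to 0.20 on the log2 scale in the PABPN comparison. In that of PABPC it was 0.16 to 0.25. These spreads were solved from the model errors with no pairing assumed, and were not measured on libraries. Reads counted on listed genes, which are part of each library's total, were estimated at 36.5 to 52.2 M per library. Of the markers of these cells, 9 of 9 were above the minimum level in both tables. Of 8 markers of blood, liver, brain, muscle and pancreas, none was above it with PABPN (0 of 8) and 1 of 8 was with PABPC.

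The members were all well expressed in input. Input levels ran from 102 RPM (reads per 1 M reads on listed genes) for SRSF5 to 394 RPM for SRSF1, with a median of 187 RPM. Levels were also taken per kb of the exons of all annotated transcripts together, with intron reads left in. On that measure input was highest for SRSF1 at 68.1 and SRSF2 at 63.4 (RPM per kb) and lowest for TRA2B at 17.4. This length can far exceed the canonical mature transcript (13084 against 4178 bases in TRA2B), so the order depends on the length used. In bulk RNA, fewer cells with a transcript and less of it per cell cannot be told apart. The authors' annotation left out stretches shared by overlapping genes and the strand setting of the counting is not given in the sources used here, which matters most for SRSF2, where 41.2% of the exonic length is overlapped, mainly by MFSD11 on the opposite strand. The share was 7.61% for SRSF1, 1.92% for SRSF4 and 0 for the other members.

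**Figure D2:**
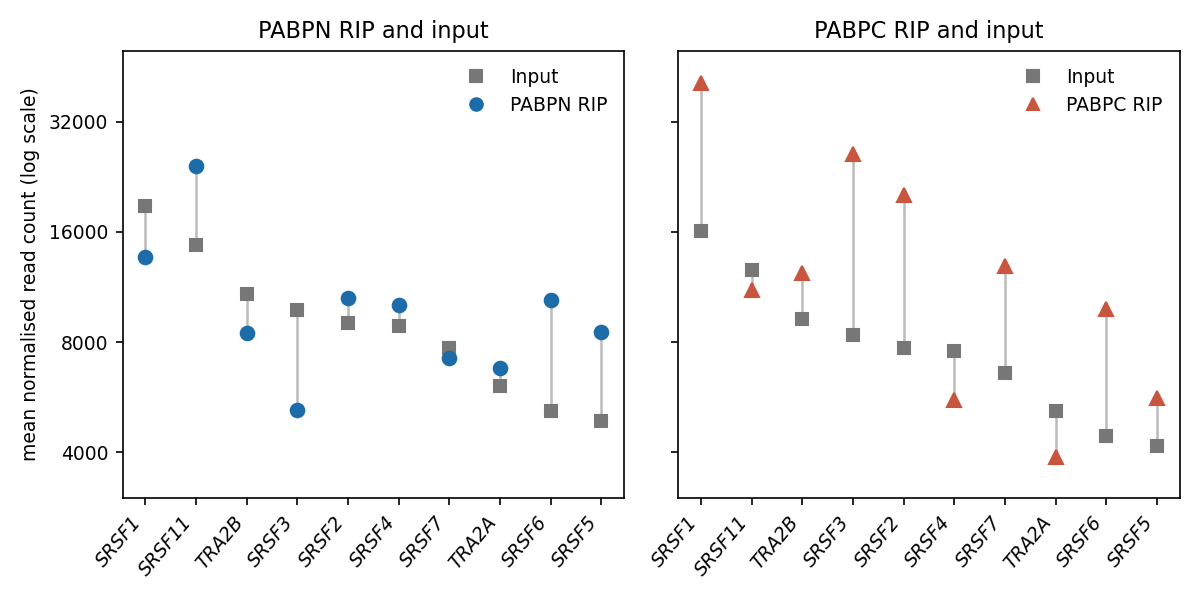
Mean normalised read count of each gene (log axis) in Input (grey squares) and in PABPN RIP (left panel, blue) or PABPC RIP (right panel, red), each a mean of 3 libraries; genes are ordered by input level. SRSF11 stood highest in PABPN RIP and SRSF1 in PABPC RIP, and SRSF3 moved down from input in the left panel and up in the right panel.

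The first question was which of these messages each protein enriched over total RNA. A gene was called enriched above a log2 fold change of 0.5 and depleted below -0.5, with an adjusted p from DESeq2 of at most 0.01. In PABPN RIP, 3 members were enriched (SRSF5, SRSF6 and SRSF11), 1 was depleted (SRSF3) and 6 were not called. Among all 15526 genes tested, 17.5% were enriched and 14.6% depleted. In PABPC RIP, 5 members were enriched (SRSF1, SRSF2, SRSF3, SRSF6 and SRSF7) and 0 were depleted, against 38.4% and 32.4% of 14843 genes. With a size cut-off of 1 in place of 0.5, SRSF6 was the 1 member left in PABPN RIP and SRSF1, SRSF2, SRSF3 and SRSF6 the 4 left in PABPC RIP. SRSF6 was enriched in both RIPs, and SRSF3 was the member called in opposite directions. The median log2 fold change of the members was 0.18 in PABPN RIP, where that of all genes tested was -0.04, and 0.70 in PABPC RIP, where that of all genes was 0.14. All members are protein coding. Among coding genes 15.1% were enriched and 16.5% depleted in PABPN RIP, with a median of -0.09. In PABPC RIP 41.2% of them were enriched and 27.9% depleted, with a median of 0.25.

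**Figure D3:**
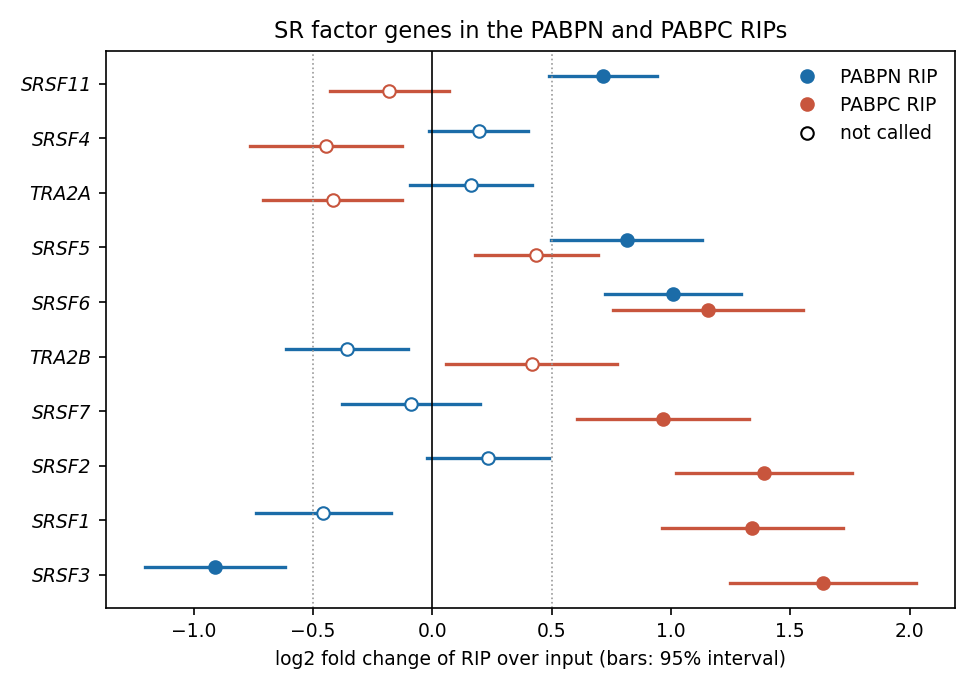
Log2 fold change of RIP over input for each gene in PABPN RIP (blue) and PABPC RIP (red) with 95% intervals, 3 libraries a group; open circles were not called and dotted lines mark the size cut-off of 0.5 in either direction. Genes are ordered by the PABPN minus PABPC difference, with SRSF11 at the top and SRSF3, at -0.91 with PABPN and 1.64 with PABPC, at the bottom.

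The second question was whether both RIPs differed from each other for a gene. Because both share the inputs, the difference of the log2 fold changes (PABPN minus PABPC) was tested directly with a two-sided normal test, adjusted over 14581 genes and called beyond 0.5 in size with an adjusted p of at most 0.01. It was called for 8 of 10 members: 3 were higher with PABPN (SRSF4, SRSF11 and TRA2A) and 5 were higher with PABPC (SRSF1, SRSF2, SRSF3, SRSF7 and TRA2B). The background shares were 36.1% of all genes higher with PABPN and 33.4% higher with PABPC. Among coding genes they were 30.64% and 37.85%. The differences of the members ran from -2.55 for SRSF3 to 0.89 for SRSF11, with a median of -0.46 beside 0.07 for all genes and -0.12 for coding genes.

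SRSF3 and SRSF7 are close relatives with a single RNA recognition motif and are known as adaptors that hand messages to the export receptor NXF1. For SRSF3, the mean normalised count was 9794 in input and 5211 in PABPN RIP, and in the PABPC table it was 8383 in input and 26070 in PABPC RIP. This message was thus 1.88-fold lower than input in PABPN RIP (log2 fold change -0.91 ± 0.15 SE, n = 3 against 3, adjusted p = 1.17e-08 from DESeq2) and 3.11-fold higher in PABPC RIP (1.64 ± 0.20, adjusted p = 9.83e-16). Its difference of -2.55 ± 0.25 (adjusted p = 9.37e-24, normal test) was the largest among the members and lay at the 4.61 percentile of coding genes. For SRSF7, counts were 7703 in input and 7246 in PABPN RIP, and 6593 in input and 12900 in PABPC RIP. PABPN RIP left SRSF7 near input (-0.09 ± 0.15, adjusted p = 0.684 from DESeq2), and PABPC RIP held 1.96 times its input level (0.97 ± 0.18, adjusted p = 4.21e-07). The difference for SRSF7 was -1.06 ± 0.24 (adjusted p = 1.40e-05, normal test). SRSF7 exceeded SRSF3 by 0.82 in PABPN RIP (95% interval 0.41 to 1.23) and fell short of it in PABPC RIP by a difference of -0.67 (-1.20 to -0.14).

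SRSF1 and SRSF2 are the founding members of the family, and SRSF2 is known to splice the end of its own message. For SRSF1, counts were 18770 in input and 13680 in PABPN RIP, and 16060 in input and 40700 in PABPC RIP. The SRSF1 fold change in PABPN RIP was -0.46 ± 0.14 (adjusted p = 0.00512 from DESeq2), which passed the test but not the size cut-off, and in PABPC RIP it was 1.34 ± 0.19 (adjusted p = 1.54e-11), a 2.53-fold enrichment. For SRSF2, counts were 8991 in input and 10580 in PABPN RIP, and 7694 in input and 20170 in PABPC RIP. SRSF2 was not called in PABPN RIP (0.23 ± 0.13, adjusted p = 0.14 from DESeq2) and was 2.62-fold enriched in PABPC RIP (1.39 ± 0.19, adjusted p = 5.14e-13). Both genes were higher with PABPC in the direct test, SRSF1 by a difference of -1.80 ± 0.24 (adjusted p = 2.87e-13) and SRSF2 by -1.16 ± 0.23 (adjusted p = 8.21e-07).

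SRSF4, SRSF5 and SRSF6 are close relatives with a pair of RNA recognition motifs. For SRSF6, counts were 5173 in input and 10410 in PABPN RIP, and 4428 in input and 9862 in PABPC RIP. SRSF6 was enriched 2.01-fold with PABPN (1.01 ± 0.14, adjusted p = 4.20e-11 from DESeq2) and 2.23-fold with PABPC (1.16 ± 0.20, adjusted p = 3.98e-08). The direct test gave no call for SRSF6 (-0.15, 95% interval -0.64 to 0.34, adjusted p = 0.596). For SRSF5, counts were 4854 in input and 8540 in PABPN RIP, and 4152 in input and 5620 in PABPC RIP. SRSF5 was enriched 1.76-fold with PABPN (0.81 ± 0.16, adjusted p = 2.97e-06 from DESeq2), and its fold change with PABPC (0.44 ± 0.13, adjusted p = 0.00188) passed the test but not the size cut-off. The difference for SRSF5 was 0.38 (95% interval -0.03 to 0.79, adjusted p = 0.0867), so a call in 1 RIP and none in the other is not shown to be a difference between them. For SRSF4, counts were 8834 in input and 10120 in PABPN RIP, and 7558 in input and 5550 in PABPC RIP. SRSF4 was called in neither RIP (0.20 ± 0.11, adjusted p = 0.129, and -0.45 ± 0.16, adjusted p = 0.0110, both from DESeq2), yet the direct test called it higher with PABPN (0.64 ± 0.19, adjusted p = 0.00142). Among these relatives SRSF6 exceeded SRSF4 by 0.81 in PABPN RIP (95% interval 0.46 to 1.16) and by 1.6 in PABPC RIP (1.09 to 2.11).

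SRSF11 encodes p54, an SR protein whose introns are long for this group. Its counts were 14730 in input and 24170 in PABPN RIP, and 12600 in input and 11120 in PABPC RIP. SRSF11 was enriched 1.64-fold with PABPN (0.71 ± 0.12, adjusted p = 5.72e-09 from DESeq2) and was not called with PABPC (-0.18 ± 0.13, adjusted p = 0.214). Its difference of 0.89 ± 0.17 (adjusted p = 4.23e-07, normal test) was the highest among the members, and it was the member enriched with PABPN for which the direct test also made a call.

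TRA2A and TRA2B are paralogues that bind GA-rich enhancers. Both have their annotated cassette exon with a stop in intron 1, and the sequences above share their first 9 bases. For TRA2A, counts were 6071 in input and 6793 in PABPN RIP, and 5191 in input and 3887 in PABPC RIP. For TRA2B, counts were 10840 in input and 8461 in PABPN RIP, and 9272 in input and 12380 in PABPC RIP. Neither gene was called in either RIP, but their fold changes lay on opposite sides of 0 in both. TRA2A stood at 0.16 ± 0.13 with PABPN (adjusted p = 0.341 from DESeq2) and at -0.42 ± 0.15 with PABPC (adjusted p = 0.00915, short of the size cut-off). TRA2B stood at -0.36 ± 0.13 with PABPN (adjusted p = 0.0185 from DESeq2) and at 0.42 ± 0.18 with PABPC (adjusted p = 0.0370). The direct test called TRA2A higher with PABPN (0.58 ± 0.20, adjusted p = 0.00488) and TRA2B higher with PABPC (-0.77 ± 0.22, adjusted p = 0.000916). TRA2A minus TRA2B was 1.35 on the scale of the difference (95% interval 0.77 to 1.94). Centring on the median of all genes made both TRA2A (-0.56) and SRSF4 (-0.59) depleted with PABPC. The difference call for TRA2A did not hold when values were centred on the median of all genes (0.51), and that for TRA2B did not hold when values were scaled to total reads (-0.45).

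**Figure D4:**
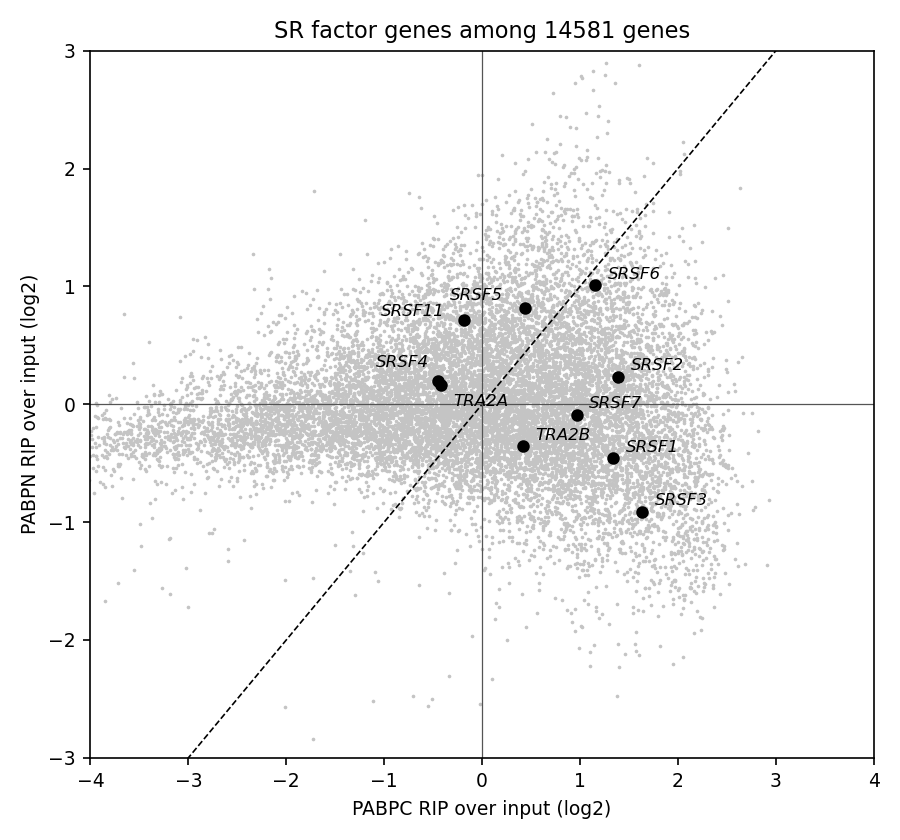
Log2 fold change over input in PABPN RIP (vertical axis) against PABPC RIP (horizontal axis) for 14581 genes (grey, 218 of them outside the axes) and the 10 SR factor genes (black, labelled); the dashed line marks equal values. SRSF3 lies farthest to the lower right of the members, SRSF6 near the line of equal values, and SRSF4, SRSF11 and TRA2A to the upper left of it.

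Ordered by fold change, most neighbouring members did not differ beyond their errors. The intervals of the gaps treat genes from the same libraries as independent and are unadjusted, so they serve as description. In PABPN RIP the order ran SRSF6, SRSF5, SRSF11, SRSF2, SRSF4, TRA2A, SRSF7, TRA2B, SRSF1 and SRSF3, and the 95% interval of the gap left out 0 between SRSF11 and SRSF2 (0.48) and between SRSF1 and SRSF3 (0.45). In PABPC RIP the order ran SRSF3, SRSF2, SRSF1, SRSF6, SRSF7, SRSF5, TRA2B, SRSF11, TRA2A and SRSF4. There the interval left out 0 between SRSF7 and SRSF5 (0.53) and between TRA2B and SRSF11 (0.60). The members spread less than coding genes did in PABPC RIP (SD over genes 0.78 against 1.28) and about as widely in PABPN RIP (0.61 against 0.64).

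Several features of gene structure were set beside the member values, with 10 points that share libraries and inputs. Total intron length of the canonical transcript ran from 985 bases in SRSF1 to 31858 bases in SRSF4, with a median of 6209 bases where coding genes had 27430. Across the 10 genes, the log2 fold change in PABPC RIP was lower where introns were longer (Spearman's rho -0.78). Pearson's r was -0.82 with the log10 of intron length. The same rank correlation over 12443 coding genes was -0.77, close to that of the members. In PABPN RIP the rho was -0.02 over the members and -0.15 over coding genes. For canonical mature transcript length, the rho with PABPC RIP was 0.44 over the 10 genes and -0.44 over coding genes. With the difference it was -0.45 and 0.41. With the exons of all annotated transcripts together as the length, the members' rho was -0.33 with PABPC RIP and 0.21 with the difference. The sign over 10 genes thus depended on the length used, and whether it departs from that of coding genes was not tested. The number of NMD transcripts, the feature the family is known for, had a rho with PABPC RIP of 0.02 over the members and -0.12 over coding genes. For the number of retained intron transcripts these were -0.25 and -0.07. The 4 members with the longest introns in all, 19279 bases or more, were SRSF4, SRSF11, TRA2A and TRA2B, of which the first 3 gave the differences called higher with PABPN and TRA2B was called higher with PABPC. Intron and exon reads enter the same count, so whether the trend lies in unspliced or spliced RNA was not tested.

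The other SRSF genes of the tables were set beside these. SRSF9 was the most enriched with PABPC (2.06 ± 0.14, adjusted p = 3.42e-49 from DESeq2) and lay near input with PABPN (-0.14 ± 0.12, adjusted p = 0.388). SRSF8 was enriched with PABPC (1.81 ± 0.18, adjusted p = 2.10e-23) and not called with PABPN (0.06 ± 0.19, adjusted p = 0.854). SRSF10 and SRSF12 were enriched in both RIPs, SRSF10 at 0.96 ± 0.11 with PABPN and 0.84 ± 0.14 with PABPC and SRSF12 at 0.59 ± 0.10 and 0.50 ± 0.13. Like SRSF6, these last genes gave no call in the direct test (0.11, adjusted p = 0.569, and 0.09, adjusted p = 0.646), while SRSF8 and SRSF9 were higher with PABPC (-1.76 and -2.20).

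**Figure D5:**
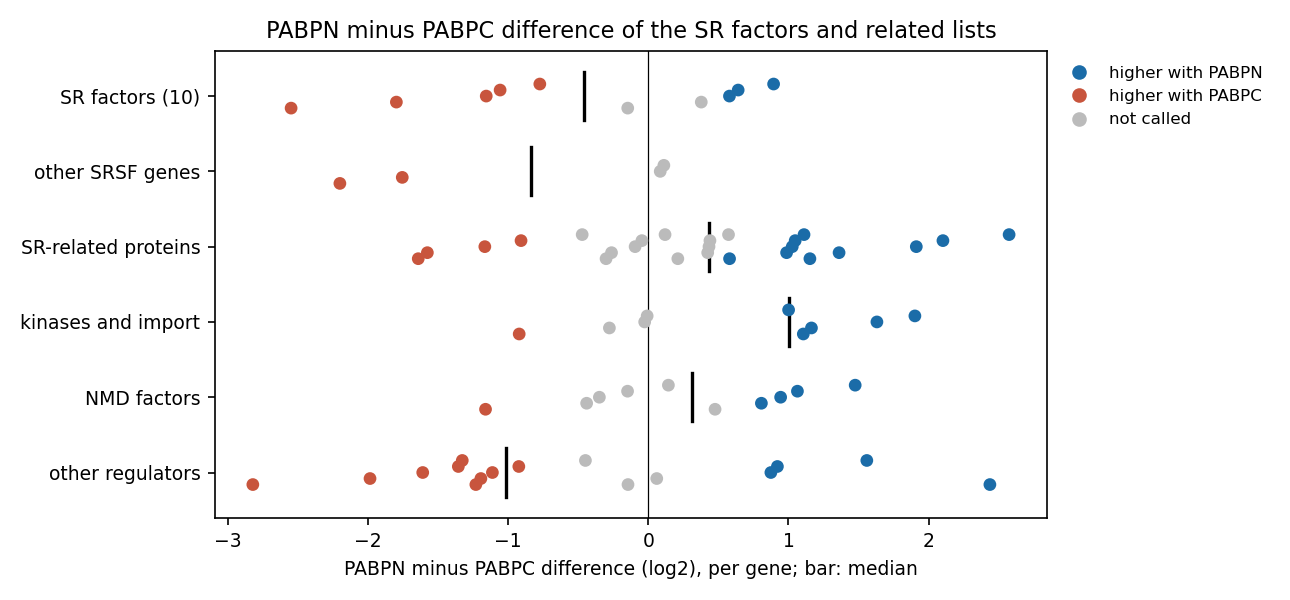
PABPN minus PABPC difference (log2) of each tested gene in the SR factor set and 5 related lists; blue genes were called higher with PABPN, red genes higher with PABPC, grey genes were not called, and black bars are medians. The medians run from -1.02 for the other splicing regulators to 1.00 for the kinases and import receptor.

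Genes around the SR proteins were described as lists. They are to be read beside the 36.1% of all genes called higher with PABPN and the 33.4% called higher with PABPC. The median difference was 0.07 over all genes. Over coding genes the shares were 30.64% and 37.85% and the median was -0.12. Of 25 SR-related splicing proteins, which carry arginine and serine rich stretches without being classical SR proteins, 10 were called higher with PABPN and 4 were called higher with PABPC, with a median difference of 0.43. The extremes were U2AF1, a subunit of the factor that recognises the 3′ splice site, at 2.57 ± 0.32 and RNPS1, a component deposited near exon junctions, at -1.64 ± 0.19. U2AF1 has a near-identical copy in hg38 and a low input level of 3.50 RPM, so its value is uncertain. Among the kinases that phosphorylate SR proteins and the receptor that imports them, 9 of 10 were tested, 5 were called towards PABPN and 1 was called towards PABPC, and the median was 1.00. SRPK2 stood highest at 1.90 ± 0.15 and DYRK1B lowest at -0.92 ± 0.20. Of 10 NMD factors, which degrade messages with premature stops, 4 were called towards PABPN and 1 towards PABPC (median 0.31), from SMG6, the endonuclease of the pathway, at 1.48 ± 0.14 to SMG8, a regulator of the SMG1 kinase, at -1.16 ± 0.27. Of 16 other splicing regulators, most of them hnRNP and related RNA binding proteins, 4 were called towards PABPN and 9 towards PABPC (median -1.02), from PTBP2 at 2.44 ± 0.16 to SNRPB at -2.82 ± 0.18.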

How the data were processed

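Total RNA of input, PABPN RIP and PABPC RIP from HEK293T cells (3 libraries each, 9 in all) was depleted of ribosomal RNA and sequenced. The authors aligned reads to hg38 with STAR and counted introns and exons together per gene with featureCounts 2.0.2, using an annotation without stretches shared by overlapping genes. They compared each RIP with input in DESeq2, whose design formula was not given in the sources used here, and deposited 2 tables of 51111 and 51268 genes. The signal column deposited by the authors, baseMean, is the mean normalised count over 6 libraries. The log2 columns the authors deposited are the fold change and its SE, the deposited score is the Wald statistic, and the deposited p-value columns hold p and its Benjamini-Hochberg adjusted value. These deposited comparison values were used as they stand, because the tables held no values per library.

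Group means were solved from baseMean and fold change. RPM are relative to the total of each group over listed genes, and this scaling shifts log2 fold changes by 0.13 in PABPN RIP and by -0.19 in PABPC RIP. Reads on listed genes per library were worked out from the lowest baseMean values, and leave out reads that were not assigned to a gene. Calls used the cut-offs of the study. The PABPN minus PABPC difference took the root of the summed squared SEs as its error. It was tested with a two-sided normal test and Benjamini-Hochberg adjustment over 14581 genes. Intervals of 95% are normal intervals. For gaps between members, the SEs of both genes were combined as if independent, though the genes share libraries. Those intervals were not adjusted for the number of gaps, and neighbours were set by sorting the same values. Of these steps, the difference test and the solving of the spread between libraries were tried on simulated counts. The simulation took its errors from the PABPN comparison. Its planted changes were larger than the difference of every member except SRSF3, so it does not test the smaller calls. Structures, coordinates and sequences came from GENCODE release 44 and hg38. The genes named are all members, the other SRSF genes, the highest and lowest difference of each related list and the 3 coding genes nearest to the member medians. The members and lists were chosen with earlier results of these data known. Python 3.11.15, pandas 2.3.3, numpy 2.4.6, scipy 1.17.1 and pysam 0.24.0 were used.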

Additional observations from a re-analysis of the deposited data

How the results depend on the processing

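Other cut-offs and filters leave the log2 values as they are, so they could move calls but not directions. Centring on the median of all genes or of coding genes turned no member value to the other side of 0. With a log2 cut-off of 1 or a Wald test that the change exceeds 0.5, members enriched with PABPN fell from 3 to 1 (SRSF6), depleted ones from 1 to 0, and those higher with PABPN in the direct test from 3 to 0; under that Wald test those higher with PABPC went from 5 to 3 (SRSF1, SRSF2 and SRSF3). After centring on the median of all genes or of coding genes, or scaling to total reads, an alternative chosen after seeing the data, 2 members were depleted with PABPC (SRSF4 and TRA2A) in place of 0. Under that last scaling SRSF7 in PABPN RIP turned to 0.047 and the SRSF6 difference to 0.18, neither of them called, and SRSF5 was called higher with PABPN (0.70). The TRA2A difference was also lost with no minimum of baseMean. Taking the shared input out of the error kept all 8 calls. With cassette exons that overlap no coding exon, 6 members in place of 7 had a stop in frame. Each gene rests on 3 libraries a group, and SEs of 0.11 to 0.20 limit what a single fold change can show. No paired analysis was possible because the deposited tables hold no values per library, and for the same reason no replicate could be left out.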

Other observations

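Few reads were assigned to processed copies of SR factor genes. Low counts do not show that the copies are silent, because reads alike in parent and copy may not be assigned to the copy. Of 11 listed pseudogenes, none reached a baseMean of 12, the highest being SRSF3P1 at 11.7 in the PABPC table. The protein coding genes nearest to the median point of the members (0.18 in PABPN RIP and 0.70 in PABPC RIP) were CORO2A at 0.18 and 0.70, CFAP36 at 0.19 and 0.71 and ERLIN1 at 0.18 and 0.69.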
